A study of Nasonia vitripennis with 6 samples.

Results

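This report concerns the RNA helicases and the germline and small RNA genes of the jewel wasp *Nasonia vitripennis*, and their read counts in the ovary and the venom gland (VG). Members were taken by words in the annotation column of the deposited gene table (RNA helicase, DEAD box, piwi, aubergine, argonaute, dicer, vasa, tudor, nanos, pumilio, maelstrom, staufen, oskar and bicaudal). The rule found 80 of the 36329 gene models. Of these, 32 form the germline and small RNA group by the words in their annotation, vasa included, and 48 are other RNA helicases. No gene model was annotated with the words piwi (0) or dicer (0), so those genes are not described here under these names.

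RNA came from 2 tissues of the Lab II strain, with 3 libraries for each tissue. All females were mated, had been exposed to hosts and were 1 to 3 days old, and each library pooled tissue from 40 to 50 individuals. The study used the ovary as the comparison tissue because of its different function, although the ovary and the venom apparatus are joined. The table gives each tissue as the authors' mean of the normalised read counts of its 3 libraries. A normalised read count is the number of reads over a scaling factor of the library. It takes no account of gene length, so counts of different genes do not rank their transcript levels.

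In the germline of insects, small RNAs bound by proteins of the PIWI family silence transposable elements. RNA helicases, Tudor domain proteins and Maelstrom help to make these piRNAs or to hold the proteins together in granules near the nucleus. A second set of proteins, among them Oskar, Nanos, Pumilio, Staufen and the Bicaudal proteins, places maternal mRNAs in the oocyte and keeps them silent until they are needed. Most other RNA helicases act in every cell, in splicing, ribosome assembly, mRNA export, translation and decay.

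The germline and small RNA members were mostly far higher in the ovary, and the other RNA helicases leaned the same way by a smaller ratio. The helicase group includes me31b, spindle-E and armi, which have known roles in the germline. Reads were present in both tissues for 25 germline members and 45 helicases. Among the 25 germline members, 22 had an ovary mean at least 2-fold above the VG mean, and 1 was at least 2-fold higher in the VG. Among the 45 helicases the corresponding counts were 27 and 2. Over all 14955 genes with reads in both tissues, 26.3% were at least 2-fold higher in the ovary and 42.2% at least 2-fold higher in the VG. The median log2 ratio of VG to ovary was -3.12 for the germline members, -1.24 for the helicases and 0.47 for all these genes. An ovary mean at least 8-fold above the VG mean was found for 13 of the 25 germline members (52%), beside 8.28% of all genes. It was found for 5 of the 45 helicases (11.1%), which is near the share of all genes. Among these 5 were me31b, spindle-E and armi. With a mean over both tissues of at least 100, the 8-fold shares were 52.2% of germline members, 11.9% of helicases and 11.1% of all genes. Among genes with a mean over both tissues of at least 100, 20 of 23 germline members and 25 of 42 helicases were at least 2-fold higher in the ovary (35.1% of all 7772 such genes), and 1 of each group was higher in the VG (25.6%). In bulk tissue, fewer cells of a type and less RNA per cell cannot be told apart.

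**Figure D1:**
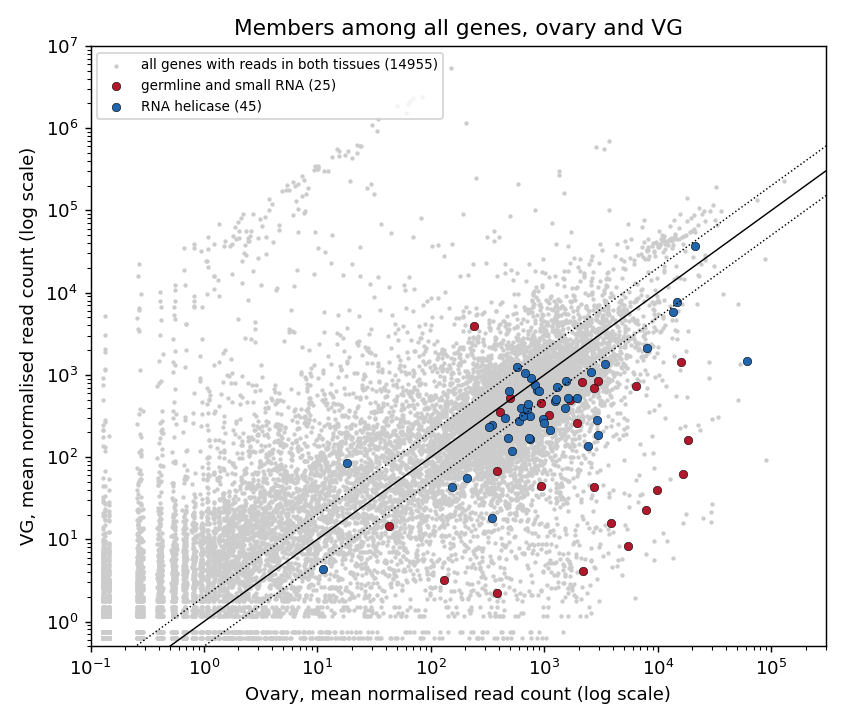
Mean normalised read count in the ovary (horizontal, log scale) and in the VG (vertical, log scale), 1 point per gene with reads in both tissues. Grey points are all 14955 genes, red points the 25 germline and small RNA members and blue points the 45 RNA helicases. The solid line marks equal means and the dotted lines a 2-fold difference. Most red points lie far below the lower dotted line, and most blue points lie along it.

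Reads per library could be worked back from the means for genes with few reads, because each mean is a sum of whole reads times a fixed step for each library. This gave the 3 VG libraries separately for 59 of the 70 members with VG reads, but the ovary libraries for only 7 of the 73 members with ovary reads. Libraries are lettered a to c within each tissue, since the table ties none of them to a replicate number. An SD over ovary libraries is therefore not known for most members. Every VG library lay at or under 0.5 of the ovary mean for 20 of the 23 germline members and for 20 of the 36 helicases resolved in this way. The share of all 12680 resolved genes that met this was 23%.

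The PIWI and Argonaute family contains the proteins that carry small RNAs. All 4 members with reads in both tissues were at least 2-fold higher in the ovary, beside 26.3% of all genes. The Aubergine gene Nasvi2EG004772 had an ovary mean of 18321 against 162.5 for the VG, with 51.5, 342.0 and 94.1 in VG libraries a, b and c. Aubergine is known from *Drosophila* as a PIWI protein of the germline that cuts transposon transcripts. The Aubergine gene Nasvi2EG013964 had an ovary mean of 16503 and VG libraries at 28.6, 133.2 and 24.4, a log2 ratio of -8.05. In both genes VG library b was the highest VG library, yet all 3 libraries were far below the ovary mean.

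The Argonaute gene Nasvi2EG004833 followed at 2753 in the ovary and 43.8 ± 15.0 (SD, n = 3) in the VG. Argonaute-2, which acts in RNA interference outside the germline as well, showed the smallest ratio of the family. Its gene Nasvi2EG026082 had an ovary mean of 1101 and VG libraries at 345.1, 302.0 and 331.1, which is 3.38-fold lower in the VG. The VG libraries of this gene lay close together, with a coefficient of variation of 6.74%.

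A further Aubergine gene, Nasvi2EG001968, had reads in the ovary only. Its ovary libraries stood at 21.3, 66.4 and 57.8, and no read was counted in any VG library. With a floor of 3 reads over the VG libraries, the ovary was at least 13.9-fold higher. No read was counted in either tissue for the other 3 members of this family, which are annotated as Argonaute-2.

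Vasa and Maelstrom were among the most ovary-biased members. Vasa, a DEAD box helicase that marks the germline of many animals, had an ovary mean of 9788. Its VG libraries stood at 15.3, 82.2 and 20.9, so the ovary mean was 248.2-fold above the VG mean. The maelstrom gene Nasvi2EG002883 had an ovary mean of 7839 and VG libraries at 13.3, 31.1 and 24.4, a log2 ratio of -8.42. The neighbouring gene model Nasvi2EG002884, also annotated as maelstrom, had 384.8 in the ovary and 66.8 ± 28.4 (SD, n = 3) in the VG, a ratio of only 5.76. The 2 models carry consecutive numbers and the same annotation, and whether reads were shared between them was not tested.

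Tudor domain proteins bind methylated arginines, among others those of PIWI proteins. Of the 9 members with reads in both tissues, 8 were at least 2-fold higher in the ovary (88.9%, beside 26.3% of all genes). The gene Nasvi2EG005816 had an ovary mean of 3871 and VG libraries at 11.4, 28.9 and 6.97. Its neighbour Nasvi2EG005817 had 379.1 in the ovary, and its 3 VG reads came from library b alone, with a mean of 2.22. Tudor domain-containing protein 5 (Nasvi2EG024707) had 130.3 in the ovary and 3.17 in the VG, from 4 reads. Both VG means are below the VG floor of 3.49, which is 3 reads at the largest step of a VG library, so these ratios are imprecise.

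The other Tudor domain members differed less. The gene annotated as maternal protein tudor (Nasvi2EG016849) had an ovary mean of 6359 and VG libraries at 735.9, 857.2 and 599.5, a log2 ratio of -3.12. Tudor domain-containing protein 12 (Nasvi2EG008089) had 924.3 in the ovary and 44.8 ± 6.49 (SD, n = 3) in the VG. Tudor domain-containing proteins 7 (Nasvi2EG005860) and 3 (Nasvi2EG020630) were 3.50-fold and 2.62-fold higher in the ovary, with every VG library below the ovary mean. The tudor and KH domain gene Nasvi2EG003965 did not separate the tissues. Its ovary mean of 493.2 lay inside the range of its VG libraries, which stood at 520.4, 368.6 and 683.1.

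Both remaining Tudor members with reads could be resolved in both tissues. Tudor domain-containing protein 7 (Nasvi2EG005859) had 20.5, 23.9 and 24.8 in the ovary libraries and no VG read, at least 6.62-fold higher in the ovary. Tudor domain-containing protein 5 (Nasvi2EG036399) had 48.0, 42.1 and 37.0 in the ovary and 20.97, 15.5 and 6.97 in the VG. These groups did not overlap, and the log2 difference was -1.60 ± 0.42 (SE; limma, adjusted p = 0.0155). Without ovary library a or b the adjusted p was 0.0650 or 0.0575. The 2 tudor and KH domain models Nasvi2EG003967 and Nasvi2EG003968 had no read.

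**Figure D2:**
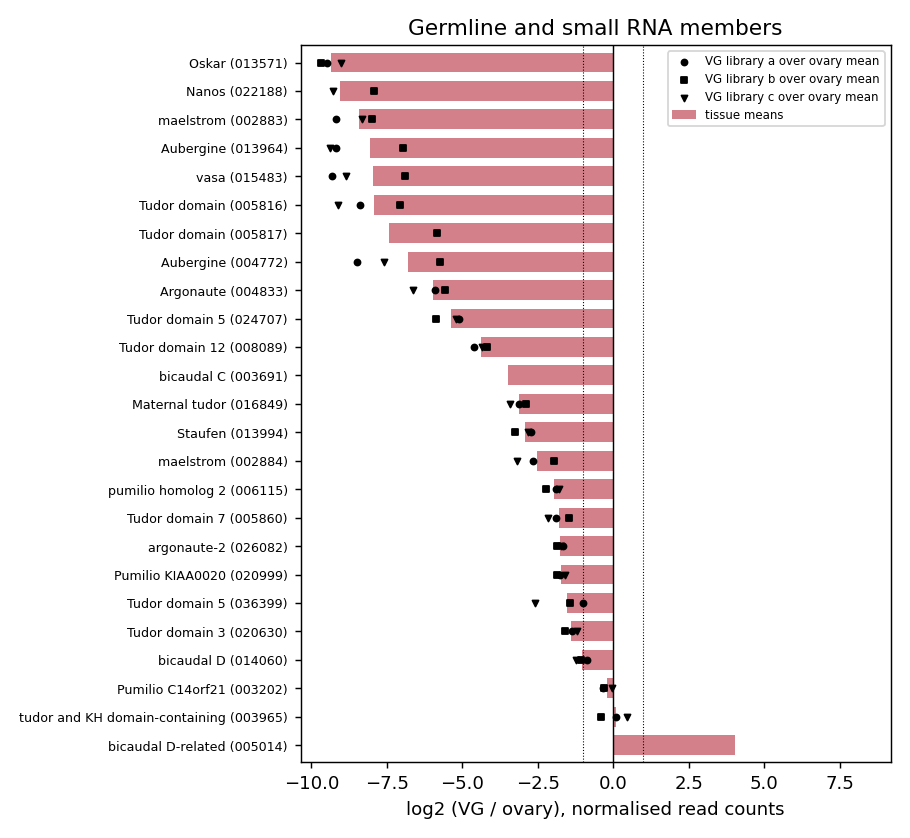
Log2 ratio of VG to ovary for the 25 germline and small RNA members with reads in both tissues (bars, from the tissue means), with each resolved VG library over the ovary mean as a point. Numbers in brackets are the last digits of the gene identifiers, dotted lines mark a 2-fold difference, and libraries without a read have no point. Bars run from -9.36 for Oskar to 4.04 for the bicaudal D-related gene.

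The genes taken by the words oskar, nanos, staufen, pumilio and bicaudal had the widest range. A role in placing or silencing maternal mRNAs is not known for each of them from the annotation. Oskar, which assembles the germ plasm in *Drosophila*, had an ovary mean of 5421.5. Its VG libraries stood at 7.63, 6.66 and 10.5, a total of only 4, 3 and 3 reads, and the log2 ratio was -9.36. Nanos, a translational repressor of the germline, had an ovary mean of 2176 and 0, 4 and 1 reads in the VG libraries. For both genes every VG library was within a few reads of the floor, so the ratio is imprecise.

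Bicaudal C, an RNA-binding protein that regulates maternal mRNAs, had an ovary mean of 16141 against 1439 for the VG. Staufen, which binds double-stranded RNA and carries mRNAs along the cytoskeleton, had 1947 in the ovary and 257.1 ± 49.3 (SD, n = 3) in the VG. Pumilio homolog 2 (Nasvi2EG006115) was 3.89-fold higher in the ovary. Its VG libraries lay between 575.1 and 787.7, all below the ovary mean of 2724.

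Other genes came in through the words Pumilio domain-containing, and their annotation gives no role in maternal mRNAs. Of these, Nasvi2EG020999 (annotated as KIAA0020) was 3.34-fold higher in the ovary. Nasvi2EG003202 (annotated as C14orf21) was nearly equal with a log2 ratio of -0.21. Bicaudal D, an adaptor of the dynein motor, was just past the 2-fold line with 939.4 in the ovary and 456.1 ± 58.1 (SD, n = 3) in the VG. The gene Nasvi2EG005014, taken by the word bicaudal and annotated as a bicaudal D-related homolog, went the other way. It was the only 1 of these 9 genes with a log2 ratio above 0. Its ovary mean was 238.8 and its VG mean 3929, 16.5-fold higher in the VG, and its VG libraries could not be resolved.

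VG library b stood apart for part of the most ovary-biased genes. Of the 6 members at least 32-fold higher in the ovary with a VG mean of at least 10, 4 had a value in library b more than 2 times the mean of libraries a and c. The summed values of the 6 were 165.9, 675.1 and 198.7 in libraries a, b and c. The same excess was found in 1 of 48 less biased members, in 882 of all 8017 resolved genes with such a VG mean, and in 33.8% of the 139 genes at least 32-fold higher in the ovary. Without library b the ratio of vasa would be 541.3 in place of 248.2, and that of Aubergine Nasvi2EG013964 would be 622.8 in place of 265.9. The 3 marker genes of the ovary were the vitellogenin receptor and a pair of chorion peroxidases, none at 0. They summed to 330, 284 and 279 in the VG libraries, of which the vitellogenin receptor alone made up 284.0, 244.3 and 216.1. The neuron markers were mixed. Of 13 resolved neuron markers with a VG mean of at least 10, 7 had the same excess in library b, among them ELAV protein 2 at 83.9, 175.4 and 13.9 and Synaptotagmin-3 at 93.4, 217.6 and 38.3. CUGBP Elav family member 4-like was also among these 7, at 26.7, 48.9 and 3.49. CUGBP Elav family member 2-like went the other way at 840.7, 526.3 and 948.0. Both CUGBP genes were taken by the word elav and are also in the list of translation control partners below. Synaptotagmin protein 5 stood at 793.0, 735.0 and 714.5. By the means, CUGBP Elav family member 2-like and Synaptotagmin protein 5 were 5.88-fold and 3.31-fold higher in the ovary. All resolved neuron markers summed to 2652, 2980 and 2314. The excess was found in 1 of 13 such muscle markers and in 0 of 8 fat body, 0 of 3 hemocyte and 0 of 10 venom markers. The part of ovary tissue, of neurons and of library b in the ratios of the most ovary-biased members was not tested. Library b was the highest VG library of vasa and of Aubergine Nasvi2EG013964, so leaving it out can only raise their ratios. Without library a or c the ratio of vasa was 189.9 or 200.9. For Aubergine Nasvi2EG013964 it was 209.4 or 204.0.

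**Figure D3:**
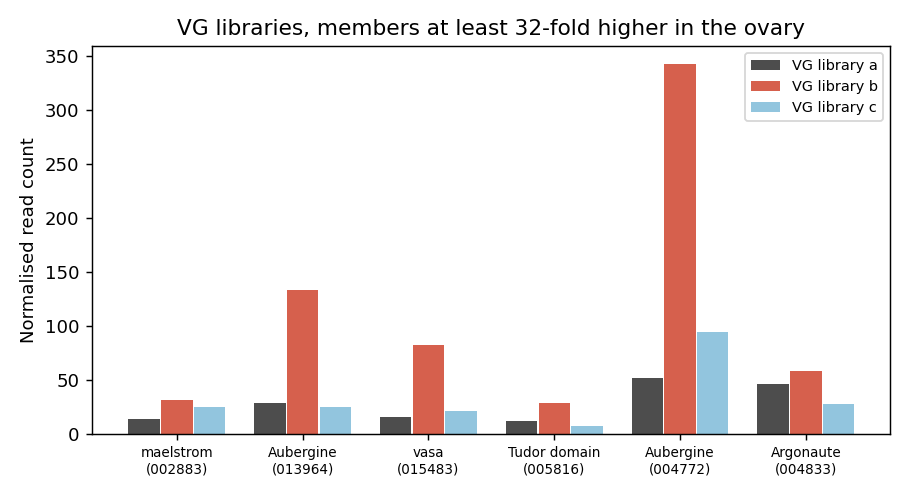
Normalised read count in VG libraries a, b and c for the 6 members at least 32-fold higher in the ovary with a VG mean of at least 10. Library b is the highest bar in each gene, up to 342.0 for Aubergine Nasvi2EG004772, whose ovary mean of 18321 is far off this scale.

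Among the helicases, me31b, spindle-E and armi, which have known roles in the germline, were 3 of the 4 with the largest ratios towards the ovary. The other of the 4, with the second largest ratio, was an unnamed DEAD box helicase (Nasvi2EG003255) with 343.4 for the ovary and 18.1 ± 4.13 (SD, n = 3) for the VG, a ratio of 19.0. The helicase me31b (Nasvi2EG007353), which keeps maternal mRNAs from being translated in *Drosophila* oocytes, had an ovary mean of 60747 against 1479 for the VG. Not corrected for length, me31b alone took 0.570% of the summed ovary means and 0.00268% of the summed VG means. Spindle-E (Nasvi2EG002966), a helicase of the piRNA pathway, had an ovary mean of 2405 and VG libraries at 139.2, 128.8 and 139.4. Armi (Nasvi2EG003373), another piRNA helicase, had 2947 in the ovary and 204.0, 142.1 and 205.6 in the VG. Both genes were lower in every VG library, 17.7-fold and 16.0-fold by the means, and library b was the lowest of the 3 in both. Pl10 (Nasvi2EG007555), a DEAD box helicase of translation, was 3.77-fold higher in the ovary.

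DDX43 (Nasvi2EG010197) came after these. It had 2885 in the ovary and VG libraries at 320.3, 268.7 and 264.9, a ratio of 10.1.

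The helicases of ribosome assembly were nearest to equal. Of 13 members, 5 were at least 2-fold higher in the ovary and none (0) in the VG, with a median log2 ratio of -0.71. The ovary share of 38.5% stands beside 26.3% of all genes with reads in both tissues. It is near the 35.1% of all genes with a mean over both tissues of at least 100. DDX52 (Nasvi2EG004023) was at one end with 1112 in the ovary and VG libraries at 205.9, 226.5 and 212.6. At the other end DDX56 (Nasvi2EG020441) was 1.56-fold higher in the VG by the means (log2 0.64), but its log2 ratio was -0.00496 when totals without the 100 highest genes of each tissue set the scale and -1.73 with total counts. DHX33 (Nasvi2EG001203) had 489.4 in the ovary and 737.8, 499.6 and 683.1 in the VG, all above the ovary mean but by less than 2-fold, and its log2 ratio turned from 0.39 to -0.26 and -1.98 under the same scalings. DDX47 (Nasvi2EG008066) was even, since its ovary mean of 819.8 lay inside its VG range of 658.7 to 930.4.

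Of the 9 splicing helicases with reads, 5 were at least 2-fold higher in the ovary and 1 in the VG. These are 55.6% and 11.1%, beside 26.3% and 42.2% of all genes. The models annotated as DHX15, which releases the spliced intron, were all at least 2-fold higher in the ovary. Of these, Nasvi2EG001012 had means of 3442 and 1352. DHX35 (Nasvi2EG004270) was 2.18-fold higher in the VG, with 569.9 in the ovary against 1243 for the VG. This direction turned with total counts, to a log2 ratio of -1.25. Its neighbouring model Nasvi2EG004271 had no read in either tissue. For the 3 mitochondrial helicases the median log2 ratio was -1.75, and SUV3 (Nasvi2EG002107), which unwinds mitochondrial RNA for decay, was 4.36-fold higher in the ovary.

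WM6, the helicase of mRNA export, and DDX17 are each annotated on several gene models. Of 7 models with reads in both tissues, 5 were at least 2-fold higher in the ovary (71.4%, beside 26.3% of all genes). The helicase with the highest VG mean, not corrected for length, was the DDX17 model Nasvi2EG013735, with 21157 normalised reads in the ovary against 36645 in the VG, 1.73-fold higher in the VG. Its log2 ratio of 0.79 was 0.14 with totals without the 100 highest genes of each tissue and turned to -1.58 with total counts. The DDX17 model Nasvi2EG013731 leaned to the ovary with 14659 and 7754. The WM6 model with the highest means, not corrected for length, was Nasvi2EG010507 with 13465 in the ovary and 5802 in the VG. Models that share a name may share reads, which was not tested.

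**Figure D4:**
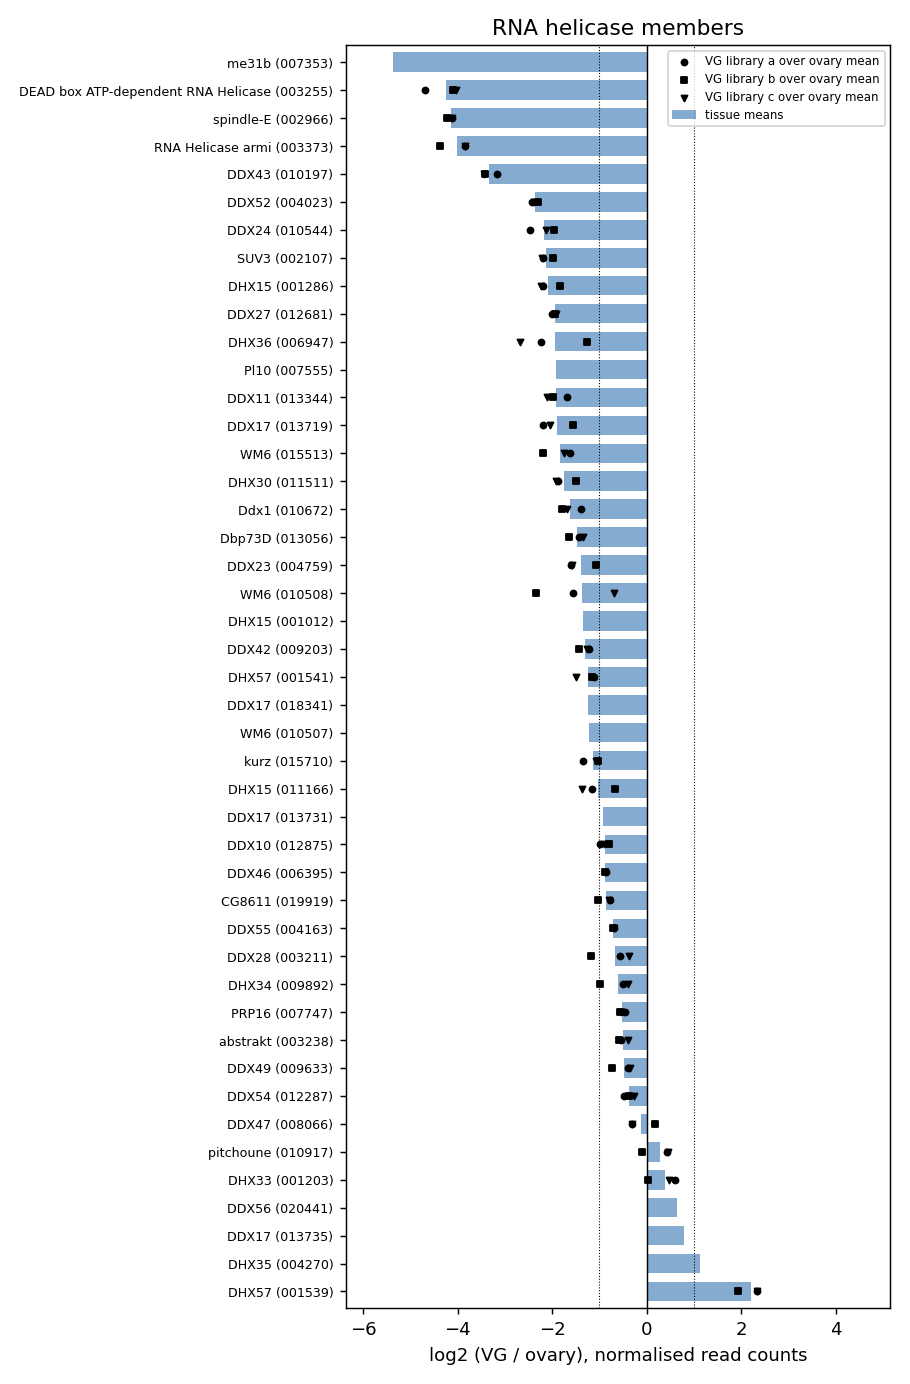
Log2 ratio of VG to ovary for the 45 RNA helicases with reads in both tissues (bars, from the tissue means), with each resolved VG library over the ovary mean as a point. Dotted lines mark a 2-fold difference. The 6 bars above 0 all turn below 0 when the tissues are scaled by total counts. Bars run from -5.36 for me31b to 2.21 for the DHX57 model Nasvi2EG001539, and 16 of them lie within 2-fold of equal.

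A test across libraries was possible only where reads were resolved in both tissues, which for most genes means a low ovary mean. limma was fitted to 6612 such genes, of which 23.4% were called higher in the ovary and 38.3% higher in the VG at an adjusted p under 0.05. Of the 6 members in the fit, 3 (Nasvi2EG001968, Nasvi2EG005859 and Nasvi2EG010508) passed the minimum of 10 reads only through their ovary reads. Their calls are therefore not used here, except in the counts over settings. The other 3 passed the minimum in each tissue. Of these limma called 2 higher in the ovary and 1 in the VG, which are too few to set beside those shares. The WM6 model Nasvi2EG015513 had 166.4, 140.1 and 149.6 in the ovary and 49.6, 33.3 and 45.3 in the VG, a log2 difference of -1.82 ± 0.22 (SE; limma, adjusted p = 0.000522). The groups did not overlap. The DHX57 model Nasvi2EG001539 had 15.5, 20.6 and 18.3 in the ovary and 91.5, 68.8 and 90.6 in the VG, the one member called higher in the VG (2.14 ± 0.25, SE; limma, adjusted p = 0.00044). With total counts the log2 ratio of its means turned from 2.21 to -0.17. Another DHX57 model, Nasvi2EG001541, leaned to the ovary with 743.0 and 314.3. The WM6 model Nasvi2EG010508 stood at 11.2 in the ovary and 4.33 in the VG, from 82 and 5 reads.

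Genes that work with the members, and helicases outside the rule, were taken from keyword lists. Of 9 small RNA partners, 7 were at least 2-fold higher in the ovary and none (0) in the VG. Arginine N-methyltransferase 5, which methylates PIWI proteins in *Drosophila*, had 2680 in the ovary and VG libraries at 240.2, 468.5 and 205.6. Its partner methylosome protein 50 had 983.3 in the ovary and 69.0 in the VG. Exportin-5, which carries microRNA precursors out of the nucleus, was 4.22-fold higher in the ovary.

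Of 10 partners in mRNA localisation and translation control with reads in both tissues, 7 were at least 2-fold higher in the ovary and 1 in the VG. Cytoplasmic polyadenylation element-binding protein 1, which controls the poly(A) tails of maternal mRNAs, had an ovary mean of 16801. Its VG libraries stood at 17.2, 13.3 and 17.4, with no excess in library b. Smaug, a repressor of maternal mRNAs, had 7894 in the ovary and 567.5 in the VG.

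Of 21 genes of mRNA decay and decapping, 12 were at least 2-fold higher in the ovary and none (0) in the VG. LSM14 B, a partner of me31b in silencing granules, was the most biased with 53152 in the ovary and 1345 in the VG, 39.5-fold. The ratio of me31b itself was 41.1. Of 13 genes of the exosome and exon junction complex, 6 were at least 2-fold higher in the ovary and none (0) in the VG, with a median log2 ratio of -0.99. The DNA and other helicases are those without the word RNA in the annotation, and they include models of the DEAD-box helicase Dbp80. Of 37 with reads in both tissues, 22 were at least 2-fold higher in the ovary and 3 in the VG. The ovary share of 59.5% was near the 60% of the helicase members, so the lean was not particular to them. In these lists too the shares stand beside 26.3% of all genes.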

How the data were processed

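Per the labels and the study's methods, trimmed reads were mapped with TopHat and assigned to genes of the official gene set by HTSeq, and DESeq served to scale the libraries and to compare the tissues. A genome build was not given in the sources used here. The deposited values are a signal, namely the authors' average of the normalised read counts of the 3 libraries of each tissue. The tissue of each column was read from a supplementary table of the study with the same values under tissue headings. The table also holds the authors' own fold changes, p-values and adjusted p-values, which were not used. Scaling factors worked back from the table were 2.30 to 2.58 for the ovary libraries and 0.287 to 0.525 for the VG libraries, so that 1 read is worth far more in the VG.

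Ratios were computed from the tissue means. A mean was resolved into reads where exactly 1 combination of whole reads in the 3 libraries gave it within the rounding of the table (10 significant digits), up to a mean of 300 in the ovary and 2200 for members in the VG. Every one of 12896 ovary means and 14115 VG means examined had a solution. A tissue without reads was given a floor of 3 reads, for counting error only. The median coefficient of variation was 11.4% for ovary means of 50 to 100 and 29.4% for such VG means.

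limma 3.58.1 in R 4.3.3 was fitted with a mean trend to log2 (normalised count + 1), with Benjamini-Hochberg adjustment. The design first set a minimum of 3 reads over the 6 libraries. On simulated reads of 9372 genes with 200 changed, that setting called 149 unchanged genes at a dispersion of 0.05, 148 of them as higher in the ovary and 145 with a mean under 5. At a dispersion of 0.2 it called 0 unchanged genes and recovered 7 of 100 genes changed 4-fold and 31 of 100 changed 8-fold. The alternative of at least 10 reads, which was already listed, called 6 of the unchanged genes among 6612 at 0.05 and recovered 97 of 100 genes changed 4-fold and 100 of 100 changed 8-fold. At 0.2 it called 7 and recovered 38 of 100 and 89 of 100. The minimum was therefore set to 10 reads, before any limma result of the members had been computed, and the first setting is kept as an alternative. p-values measure the spread between pooled libraries.

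Named genes are the germline members with a mean of at least 10 in a tissue, the helicases with the highest means or the largest ratios in either direction, and me31b. DDX24, DDX54 and the DDX17 model Nasvi2EG018341 also met this rule and are not described above. By the means they were 4.49-fold, 1.29-fold and 2.36-fold higher in the ovary. The helicase models Nasvi2EG015513, Nasvi2EG010508 and Nasvi2EG001541 and members without reads were named after their values were seen. The members and keyword lists were chosen with earlier results of these data known. Keywords of up to 5 letters had to match whole words. No sequence, gene length or coordinate was used here. Other tools were matplotlib 3.10.9, pandas 2.3.3, numpy 2.4.6 and Python 3.11.15.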

Additional observations from a re-analysis of the deposited data

How the results depend on the processing

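The scaling between the tissues is the main limit, because a few VG genes take a large share of the VG reads and no ovary SD is known for most members. Under scaling by total counts (a shift of all log2 ratios by -2.37), the median log2 ratio was -5.49 for the germline members and -3.61 for the helicases, 44 helicases were at least 2-fold higher in the ovary against 0 in the VG, while 63.1% of all genes were higher in the ovary against 13.6% in the VG. There all 6 helicases above 0 turned, namely DHX57 Nasvi2EG001539 (-0.17), DHX35 Nasvi2EG004270 (-1.25), DDX17 Nasvi2EG013735 (-1.58), DDX56 (-1.73), DHX33 (-1.98) and pitchoune (-2.09), as did the tudor and KH domain gene Nasvi2EG003965 (-2.28). With totals that left out the 100 highest genes of each tissue (shift -0.65), the medians were -3.77 and -1.89, with 1 helicase higher in the VG, and DDX56 (-0.00496), DHX33 (-0.26), pitchoune (-0.37) and Nasvi2EG003965 (-0.56) turned. Centred on the median gene (shift 0.27), they were -2.85 and -0.97, and DDX47 (0.14) and the Pumilio gene Nasvi2EG003202 (0.05) turned towards the VG. A pseudocount of 1 gave a germline median of -3.49, because it brings in 2 members without VG reads. A 4-fold threshold left 9 helicases higher in the ovary and 1 in the VG. These alternatives were chosen after seeing the data: with spindle-E and armi counted as germline genes the germline median was -3.49, and with a mean over both tissues of at least 100 there was 1 helicase higher in the VG. Leaving out each VG library gave germline medians of -3.13 to -2.997 and helicase medians of -1.32 to -1.27 over the resolved members, with 20 to 21 and 21 to 22 higher in the ovary.

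Over all members in the fit, limma called 5 higher in the ovary and 1 in the VG as fitted. These 5 include the 3 members that entered through ovary reads alone, so the counts do not show a lean to the ovary. The numbers were the same at a minimum of 3 reads, with a pseudocount of 0.5 and without the mean trend. Leaving out 1 library gave 3 to 5 members higher in the ovary, and 1 higher in the VG throughout. The ovary count was 3 without ovary library a or b and 5 without VG library c. Of the 3 members that passed the minimum in each tissue, Nasvi2EG015513 and Nasvi2EG001539 kept their calls in every setting. The call of Nasvi2EG036399 was lost without ovary library a or b (limma, adjusted p = 0.0650 and 0.0575). With a tolerance 10 times wider, 6 ovary and 52 VG members were resolved. No paired analysis was possible because the table holds tissue means, and the resolved libraries carry no replicate number.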
